A study of Mus musculus with 20 samples.

Results

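The forkhead genes encode transcription factors that share a forkhead (winged helix) DNA-binding domain. Members were the protein-coding genes of the GENCODE M21 annotation of the mouse genome build GRCm38 (mm10) whose symbol was Fox, a letter from a to s and a number, without Foxa2, Foxd3 and Foxh1. This rule gave 41 of 21938 protein-coding genes, of which 40 are described. Their chromatin was described from a list of 102373 regions found open by ATAC-seq, in which a transposase cuts accessible DNA and inserts sequencing adapters, in ZHBTc4 mouse embryonic stem (ES) cells.

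The study asked how OCT4, the pluripotency factor encoded by Pou5f1, acts on chromatin accessibility through the cell cycle. In ZHBTc4 cells doxycycline (dox) shuts off endogenous Pou5f1 through a Tet-Off promoter, and a lentivirus with a PGK promoter supplied either SNAP-MD-OCT4, whose mitotic degron causes its degradation at the M-G1 transition, or SNAP-MD*-OCT4, whose degron is mutated. The series comprised 20 libraries in 10 groups of 2 replicates. For each construct, cells kept for 40 h in dox at 1 ug/ml were sorted by Hoechst and YPet fluorescence into EG1 and LG1 (the early and late parts of G1), S, and SG2 (the end of S with G2), which gave 8 groups and 16 libraries. Unsorted cells without dox gave 2 groups and 4 libraries. All cells also carried YPet-MD, a fluorescent reporter of cell cycle position, and grew in serum, LIF and 2 inhibitors (CHIR99021 and PD184352). The transduced lines were sorted cell populations rather than single clones.

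The open regions, called peaks, had been merged over the 16 dox-treated libraries into 1 list of coordinates with 3 columns. Each peak is the union of what was called in the separate libraries, and no column holds a count, a height or a value for any library. The depth behind a peak is therefore unknown, no replicate error can be given, and neither the constructs nor the phases could be compared at the forkhead genes. Where the list has no peak at a transcription start site (TSS), it does not follow that the site was closed. The TSS of the pluripotency genes Sox2, Klf4 and Zfp42 each had a peak within 1000 bp. The nearest peak was 1481 bp from the TSS of Nanog and 4663 bp from that of Esrrb. Since 66.1% of all protein-coding genes had a peak that near, these genes cannot serve as a check of the cell label.

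Forkhead factors bind DNA through this domain, and some of them, such as the FOXA proteins of the endoderm, can engage sites in closed chromatin and act as pioneer factors. Others are also known for roles outside development. Insulin and growth factor signalling keep the FOXO proteins out of the nucleus, and FOXM1 activates genes of G2 and mitosis. Many of the developmental members are short genes with CpG islands that are bound by Polycomb complexes in ES cells. The members were set in groups by their known roles, since expression was not measured: 12 broadly expressed genes (Foxj2, Foxj3, Foxk1, Foxk2, Foxm1, Foxn2, Foxn3, Foxo1, Foxo3, Foxo4, Foxp1 and Foxp4), 2 germline genes (Foxr1 and Foxr2), and the other 26, called lineage-restricted.

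The promoters of 6 forkhead genes are shown to give a view of the sequences behind the peaks. Each runs from 250 bp before the TSS over 300 bp in the direction of transcription, read from GRCm38 at the GENCODE start, with every CpG in capitals. Foxl2 and Foxf1 had TSS peaks of over 2000 bp, Foxp2 had a single peak in its whole surroundings, Foxi1 had the narrowest TSS peak, and Foxq1 and Foxr2 had none within 1000 bp.
Foxl2 (chr9:98955038-98955337, plus strand): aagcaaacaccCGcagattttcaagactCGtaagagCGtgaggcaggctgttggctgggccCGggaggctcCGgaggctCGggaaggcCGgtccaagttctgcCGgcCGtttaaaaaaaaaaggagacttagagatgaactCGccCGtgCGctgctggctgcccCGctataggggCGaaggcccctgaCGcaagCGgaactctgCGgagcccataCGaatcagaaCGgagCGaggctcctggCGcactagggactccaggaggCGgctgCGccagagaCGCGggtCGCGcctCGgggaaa
Foxf1 (chr8:121084136-121084435, plus strand): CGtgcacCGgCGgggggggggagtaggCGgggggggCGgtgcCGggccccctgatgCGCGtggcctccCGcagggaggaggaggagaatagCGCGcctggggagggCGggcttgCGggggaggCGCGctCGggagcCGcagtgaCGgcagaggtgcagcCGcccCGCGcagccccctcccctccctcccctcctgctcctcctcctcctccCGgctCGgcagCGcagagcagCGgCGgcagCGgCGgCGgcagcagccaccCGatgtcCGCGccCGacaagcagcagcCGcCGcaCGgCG
Foxp2 (chr6:14901099-14901398, plus strand): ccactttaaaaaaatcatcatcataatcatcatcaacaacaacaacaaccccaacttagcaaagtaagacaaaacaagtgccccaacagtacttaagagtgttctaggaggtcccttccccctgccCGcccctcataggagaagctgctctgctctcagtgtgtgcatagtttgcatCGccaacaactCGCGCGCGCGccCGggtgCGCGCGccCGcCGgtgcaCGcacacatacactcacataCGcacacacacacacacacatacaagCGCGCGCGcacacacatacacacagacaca
Foxi1 (chr11:34208040-34208339, minus strand): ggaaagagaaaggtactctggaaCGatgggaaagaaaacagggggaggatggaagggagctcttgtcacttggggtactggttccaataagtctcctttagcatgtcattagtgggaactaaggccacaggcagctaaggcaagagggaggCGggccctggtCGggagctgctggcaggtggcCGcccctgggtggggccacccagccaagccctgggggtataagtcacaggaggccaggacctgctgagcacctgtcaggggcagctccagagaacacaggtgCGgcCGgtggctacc
Foxq1 (chr13:31555884-31556183, plus strand): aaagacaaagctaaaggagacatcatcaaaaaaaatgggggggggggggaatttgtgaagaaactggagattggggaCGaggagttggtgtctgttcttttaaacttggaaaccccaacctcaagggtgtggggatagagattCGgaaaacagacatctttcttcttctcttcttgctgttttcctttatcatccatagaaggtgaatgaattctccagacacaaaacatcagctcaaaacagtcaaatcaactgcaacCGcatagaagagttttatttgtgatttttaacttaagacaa
Foxr2 (chrX:153118536-153118835, plus strand): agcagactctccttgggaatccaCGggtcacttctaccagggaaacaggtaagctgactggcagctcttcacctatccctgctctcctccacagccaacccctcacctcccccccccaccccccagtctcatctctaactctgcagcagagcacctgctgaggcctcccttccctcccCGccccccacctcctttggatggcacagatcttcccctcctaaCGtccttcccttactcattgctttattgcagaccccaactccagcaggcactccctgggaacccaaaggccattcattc
The window of Foxf1 held 37 CpG, that of Foxl2 28 and that of Foxp2 19. Foxi1 had 6 CpG, and Foxq1 and Foxr2 had 3 each. Over all 40 forkhead genes the median was 21 CpG per 300 bp, and over all protein-coding genes it was 11.

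A peak lay within 1000 bp of the TSS, taken as the annotated 5' end of the gene, at 35 of the 40 forkhead genes (87.5%, 95% Wilson interval 73.9 to 94.5). The background over all protein-coding genes was 66.1%. Among the broadly expressed genes 11 of 12 had a TSS peak, among the lineage-restricted genes 23 of 26, and of the germline genes Foxr1 did and Foxr2 did not. Other families of developmental transcription factors gave a like share, with 15 of 15 SOX genes (chosen without Sox1, Sox2, Sox7 and Sox17) and 11 of 13 POU genes (84.6%, chosen without Pou5f1 and Pou3f1). Intervals here treat genes as independent and cover counting error only.

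The 5 forkhead genes without a TSS peak were Foxj3, Foxn1, Foxq1, Foxr2 and Foxs1. The nearest peak was 2017 bp from the TSS of Foxj3, a broadly expressed gene, but another protein-coding start of Foxj3 lay inside that peak, which was 1593 bp wide. At Foxq1, a regulator of hair differentiation, the nearest peak began 1656 bp downstream of the TSS, was 2563 bp wide and covered 100% of the coding sequence. The start of another gene, A530084C06Rik, lay nearer its centre. So at Foxj3 and Foxq1 the gene held a peak, although not at its annotated 5' end.

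The 5' ends of the other 3 were farther from any peak. Foxs1, a small gene with 1 coding part, was 9236 bp from the nearest peak, and 0% of its coding sequence was covered. Foxn1, the regulator of thymic epithelium whose loss gives the nude mouse, was 8285 bp away. Foxr2 was 20737 bp away from its 5' end and 12626 bp away from any of its coding starts. Foxn1 nevertheless had 20 peaks within 50000 bp of the gene, of which 7 overlapped the gene and covered 10.6% of its coding sequence, and Foxs1 had 10, of which 0 overlapped the gene.

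A promoter was called CpG-rich where the observed to expected CpG ratio was at least 0.6 and G+C at least 50% within 500 bp of the TSS. By this measure 30 of the 40 forkhead promoters were CpG-rich (75%), compared with 44.4% of all protein-coding genes. All 30 had a TSS peak (100%, Wilson interval 88.6 to 100), beside 99.3% of all CpG-rich genes. Of the 10 CpG-poor forkhead promoters 5 had one (50.0%, interval 23.7 to 76.3), beside 39.6% of all CpG-poor genes. Within each CpG class the interval of the forkhead share held the background. The class was read at the annotated 5' end, also at Foxj3 and Foxq1, whose nearest peaks lay 2017 and 1656 bp from it.

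The 5 CpG-poor promoters with a TSS peak belonged to Foxa1, Foxa3, Foxd4, Foxi1 and Foxi2. Foxa3, an endoderm and liver gene, fell just under the limit with a ratio of 0.59. Foxa1, a pioneer factor of endoderm and hormone-responsive epithelia, had a ratio of 0.47, and Foxi2 of 0.52. Foxd4 missed the G+C limit too, with 47.3%. The plot of CpG content shows all 5 promoters without a peak below a ratio of 0.6.

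**Figure D1:**
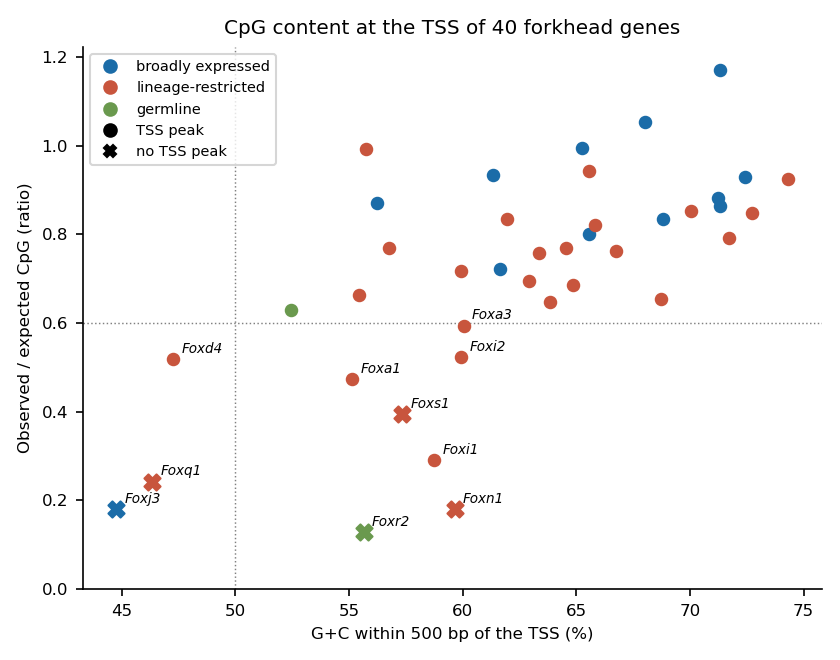
G+C content in percent (x axis) and observed to expected CpG (y axis) within 500 bp of the TSS of the 40 forkhead genes, coloured by group, with dotted lines at the limits of 50% and 0.6. Circles are genes with a TSS peak and crosses the 5 without one, all of which lie under the horizontal line, and the 10 CpG-poor genes are named.

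The TSS peaks of forkhead genes were wider than that of the median gene. Where several peaks lay within 1000 bp, as at 7 of the 35 genes, the widest was taken. The median width was 1443 bp (95% interval by order statistics 1182 to 1925) at the 35 forkhead genes and 1090 bp (1083 to 1097) at all 14498 genes with a TSS peak. Among CpG-rich promoters the medians were 1514.5 and 1180 bp. The lineage-restricted genes had a median of 1607 bp (interval 1328 to 2366) and the broadly expressed ones of 1279 bp (851 to 2057), and these intervals overlap. The medians of the SOX and POU genes were 1522 and 1054 bp.

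Of the 35 TSS peaks 10 were at least 2000 bp wide (28.6%), whereas 2.80% of all genes with a TSS peak had one of that width. In the SOX family 2 of 15 were that wide (13.3%), and in the POU family 0 of 11. The limit of 2000 bp was chosen after the widths were seen, and the nearest members on either side were Foxn2 at 2057 bp and Foxc2 at 1955 bp. The widest was that of Foxp1, a broadly expressed gene with roles in lymphocytes, lung and brain, at 2792 bp. Next came Foxl2, which maintains ovarian granulosa cells, at 2784 bp, Foxb1, a gene of the hypothalamus and spinal cord, at 2702 bp, and Foxc1, a gene of mesoderm and the anterior eye, at 2635 bp. Foxe1, required in the thyroid, had a peak of 2532 bp, Foxf1, a gene of lung and gut mesenchyme, of 2488 bp, and Foxd2 of 2419 bp. Foxp2, a gene of brain circuits linked to speech, had 2366 bp and Foxd1, a marker of kidney stroma, 2263 bp. Of these 10 genes 8 were lineage-restricted, out of 23 such genes with a TSS peak (34.8%). The broadly expressed ones were Foxp1 and Foxn2, 2 out of 11 (18.2%).

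**Figure D2:**
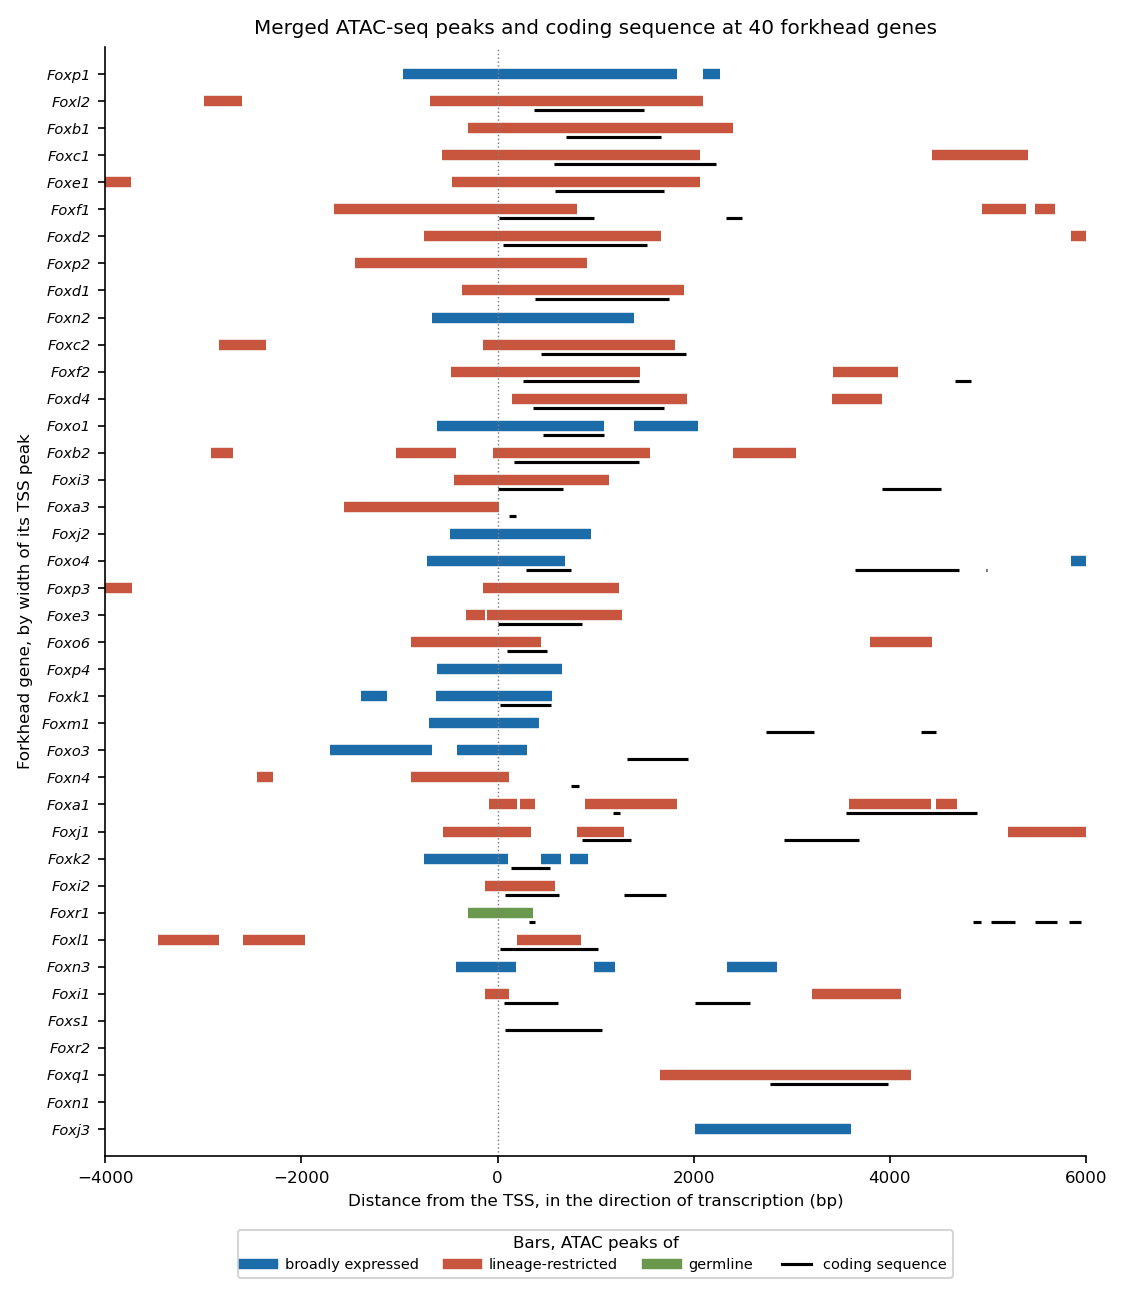
Merged ATAC-seq peaks (bars, coloured by group) and coding sequence (black lines) from 4000 bp upstream to 6000 bp downstream of the TSS of each forkhead gene, ordered from the widest TSS peak at the top to the 5 genes without one at the bottom. The x axis is the distance from the TSS in bp, and at Foxl2, Foxb1 and Foxe1 the bar runs from the TSS across the whole coding sequence, whereas at Foxp2 no coding sequence lies within the range shown.

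The narrowest TSS peak was that of Foxi1, a gene of the inner ear and of acid-secreting kidney cells, at 245 bp. Foxn3, a broadly expressed gene, had 613 bp, Foxl1, a gene of gut mesenchyme, 653 bp, Foxr1 663 bp and Foxi2 708 bp. The remaining 20 genes lay between 851 bp at Foxk2 and 1955 bp at Foxc2. Between those ends were Foxa1 (940 bp), Foxj1 (900), Foxn4 (1002), Foxo3 (1049), Foxm1 (1123), Foxk1 (1182), Foxp4 (1279), Foxo6 (1328), Foxe3 (1377), Foxp3 (1398), Foxo4 (1412), Foxj2 (1443), Foxa3 (1578), Foxi3 (1586), Foxb2 (1607), Foxo1 (1706), Foxd4 (1781) and Foxf2 (1925).

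The median TSS peak of a lineage-restricted forkhead gene reached 1271 bp downstream of the TSS and 448 bp upstream. For the broadly expressed genes these extents were 662 and 664 bp, and for all protein-coding genes 640 and 422 bp. The widest TSS peak reached farther downstream than upstream at 22 of 35 forkhead genes. Among all protein-coding genes with a TSS peak it did so at 10071 of 14498, so that direction was not particular to forkhead genes. At 1000 bp downstream of the TSS, 57.7% of the lineage-restricted genes had a listed peak, 33.3% of the broadly expressed genes and 13.6% of all protein-coding genes. At 500 bp upstream the order of the forkhead groups was turned around, with 38.5% of the lineage-restricted and 66.7% of the broadly expressed genes. Both shares were above the 24.3% of all protein-coding genes there.

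**Figure D3:**
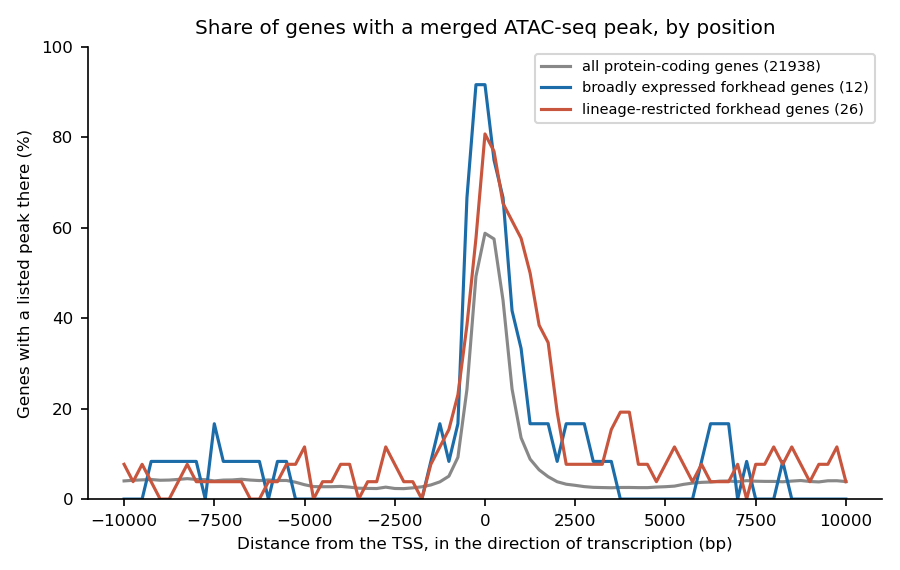
Percent of genes with a listed peak at each position (y axis) against the distance from the TSS in bp (x axis, steps of 250 bp), for the 26 lineage-restricted forkhead genes, the 12 broadly expressed ones and all 21938 protein-coding genes. The lineage-restricted curve stays above the grey curve for all genes from the TSS to 2000 bp downstream, where it stands at 19.2% against 3.84%.

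At Foxf1 and Foxp2 the wide peak lay mostly upstream of the TSS. The peak of Foxf1 reached 1671 bp upstream and 816 bp downstream, and it also held the start of the long non-coding RNA gene Fendrr on the opposite strand. That of Foxp2 reached 1456 bp upstream and 909 bp downstream. At 4 genes the widest TSS peak did not overlap the annotated TSS at all. It began 202 bp downstream at Foxl1, 152 bp at Foxd4 and 888 bp at Foxa1, and at Foxo3 it ended 664 bp upstream. A narrower peak did overlap the TSS of Foxa1 and Foxo3.

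Many lineage-restricted forkhead genes carry their whole coding sequence in 1 exon, and the listed peaks covered much of it. The median share of coding bases inside peaks was 84.4% for the lineage-restricted genes, 17.2% for the broadly expressed ones and 2.46% for all protein-coding genes. The coding sequence was covered completely at 9 forkhead genes, namely Foxb1, Foxb2, Foxd1, Foxd2, Foxd4, Foxe1, Foxe3, Foxl2 and Foxq1, all of them lineage-restricted and with 1 coding part. The background was 1.49% of all protein-coding genes. Complete cover was nearly as common in the SOX family, at 3 of 15 genes (20%), beside 22.5% of forkhead genes. In the POU family it was found at 1 of 13 (7.69%). A closer background is the genes with a CpG-rich promoter, 1 coding part and a TSS peak, where 27.2% of 624 genes were covered completely and the forkhead count was 7 of 10. In that class the median TSS peak was 2341 bp at the forkhead genes and 1270 bp at all genes, and the median coding length was 1204.5 and 918 bp. The members Foxd4 and Foxq1 are outside that class because their promoters were CpG-poor.

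CpG-rich sequence around the TSS was set beside the width of the TSS peak. Its extent was summed over tiles of 200 bp, at steps of 100 bp, that passed both CpG limits within 3000 bp of the TSS. The median extent was 1650 bp for the forkhead genes and 600 bp for all protein-coding genes. For the SOX and POU genes it was 1600 and 2100 bp. Among genes with at least 2000 and under 3000 bp of such sequence, 7 of 10 forkhead TSS peaks were at least 2000 bp wide, beside 23.0% of all 727 genes. With 3000 bp or more the count was 2 of 5 beside 26.6%, with at least 1000 and under 2000 bp it was 1 of 13 beside 2.96%, and with less than 1000 bp it was 0 of 7 beside 0.427%. From the least to the most such sequence, the median widths were 708, 1398, 2341 and 1955 bp at the forkhead genes. Over all genes they were 957, 1270, 1547 and 1422 bp, so the median did not rise in the last class. The part of sequence composition, of gene structure or of merging over libraries in the width of these peaks was not tested.

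Some TSS peaks also held the start of another annotated gene, which was counted at the forkhead genes only, so no background is given. This was so at 11 of the 35 forkhead genes, where the peak could not be assigned to the forkhead gene alone. These were Foxa3 with Sympk, Foxb1 with B230323A14Rik, Foxd2 with Foxd2os, Foxe1 with Gm12446, Foxf1 with Fendrr, Foxf2 with 1700018A04Rik, Foxj2 with Gm26826, Foxl2 with Foxl2os, Foxm1 with Rhno1, Foxn3 with Gm26839 and Foxp3 with Ppp1r3f. The last pair matters for reading Foxp3, the factor that defines regulatory T cells: its annotated 5' end lies beside Ppp1r3f, and the nearest start that RefSeq lists for Foxp3 was 4788 bp from any peak. The RefSeq start of Foxn3 was likewise 27009 bp from a peak.

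Beyond the TSS, peaks were counted within 50000 bp of each gene body. The median was 11 peaks per forkhead gene (interval 8 to 14, range 1 to 40) and 10 per protein-coding gene. Broadly expressed forkhead genes had a median of 17 and lineage-restricted ones of 9, but the broadly expressed genes are longer, with a median of 59.0 kb against 4.15 kb, and so have larger windows. Per 100 kb of window the medians were 10.5 and 7.98 peaks, beside 9.07 for all forkhead genes and 6.97 for all protein-coding genes. The SOX genes had a median of 11 peaks and the POU genes of 9.

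The most peaks surrounded Foxn3, which has been tied to cell cycle checkpoints, with 40 in a window of 474 kb. The count exceeded that of 99.6% of protein-coding genes, but its density of 8.45 peaks per 100 kb exceeded that of 58.4%. Of the 40 peaks 30 had Foxn3 as the nearest protein-coding TSS, measured from the centre of the peak. Foxo3, a target of insulin and stress signalling, had 25 peaks and Foxp1 24. Foxk1, a regulator of metabolism and autophagy, had 21, and Foxj2 and Foxn1 had 20 each. All 24 peaks of Foxp1 and 21 of the 25 of Foxo3 were nearest to these genes, whereas only 6 of the 20 at Foxn1 and 6 of the 20 at Foxj2 were.

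Foxp2 stood at the other end. Its window of 641 kb held 1 peak, the wide one at its TSS, which came to 0.16 peaks per 100 kb. Foxp1, the related gene with a still larger window of 697 kb, held 24 peaks or 3.44 per 100 kb. Foxi2 also had only its TSS peak, Foxq1 had 2 peaks and Foxp3 had 4. Foxb1, Foxb2 and Foxr2 had 5 each. Foxb1 and Foxp2 thus combined some of the widest TSS peaks of the family with some of the fewest peaks around the gene.

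**Figure D4:**
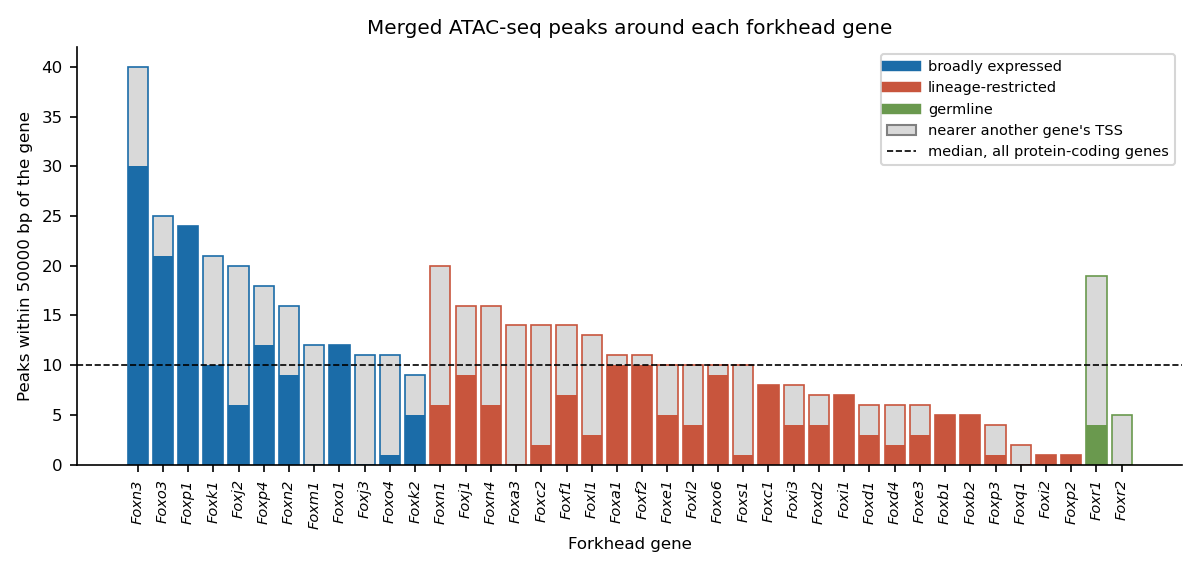
Number of merged ATAC-seq peaks within 50000 bp of each forkhead gene (y axis), by group and in falling order. Coloured parts are peaks nearest to the TSS of that gene and grey parts peaks nearer to another protein-coding gene, and the dashed line is the median of all protein-coding genes, 10 peaks.

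By density the highest values were those of Foxr1 with 17.7 peaks per 100 kb, Foxj2 with 15.9, Foxn1 with 15.5, Foxj1, which drives the formation of motile cilia, with 15.3 and Foxc2, a gene of lymphatic vessels, with 13.6. At Foxr1 only 4 of 19 peaks and at Foxc2 only 2 of 14 were nearest to the gene itself. After Foxp2 the lowest were Foxi2 with 0.97, Foxq1 with 1.91, Foxp3 with 3.29 and Foxp1 with 3.44. No peak was nearest to the annotated 5' end of Foxa3, Foxj3, Foxm1, Foxq1 or Foxr2. At Foxj3 this measure passes over the other coding start, which lay inside a peak assigned to Frg2f1. The genes Foxa3, Foxj3, Foxm1 and Foxq1 nevertheless overlapped 1, 4, 2 and 1 peaks, while Foxr2 overlapped 0.

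The other members had counts between these. There were 18 peaks at Foxp4, 16 at each of Foxn2, Foxj1 and Foxn4, 14 at Foxa3, and 12 at each of Foxm1 and Foxo1. Foxa1, Foxf2, Foxj3 and Foxo4 had 11 each, and Foxe1, Foxl2, Foxo6 and Foxs1 had 10 each. There were 9 at Foxk2, 8 at each of Foxc1 and Foxi3, 7 at each of Foxd2 and Foxi1, and 6 at each of Foxd1, Foxd4 and Foxe3. Foxr1 had 19 peaks, and the group of Foxf1, Foxc2 and Foxl1 had 14, 14 and 13.

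The windows held 444 distinct peaks, of which 21 (4.73%) lay in the windows of more than 1 forkhead gene. Of the 444 peaks 136 were within 1000 bp of some annotated TSS and 308 (69.4%) were distal. Over the whole list 76716 of 102373 peaks were distal. Introns held 154 of the distal peaks, intergenic sequence 124, exon parts outside coding sequence 18 and coding exons 12. A forkhead gene was the nearest protein-coding gene for 250 of the 444 (56.3%). The positions of distal peaks and the nearest genes were counted in the forkhead windows only, so no background is given for them.

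The shared peaks came from 3 groups of neighbouring genes. On chromosome 8, Foxf1, Foxc2 and Foxl1 lie in this order, with 28026 bp between the first pair and 9044 bp between the second. All 14 peaks of Foxf1 were also in the window of Foxc2, and 13 were in all 3 windows. By nearest TSS they were split, with 7 for Foxf1, 2 for Foxc2 and 3 for Foxl1, and the other 2 were nearest to Mthfsd, which lies between Foxf1 and Foxc2. On chromosome 4, Foxd2 and the lens gene Foxe3 lie 16273 bp apart and shared 6 peaks. On chromosome 13, Foxq1 and Foxf2 lie 64839 bp apart and shared 1. Counts within each group are therefore not independent of each other.

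**Figure D5:**
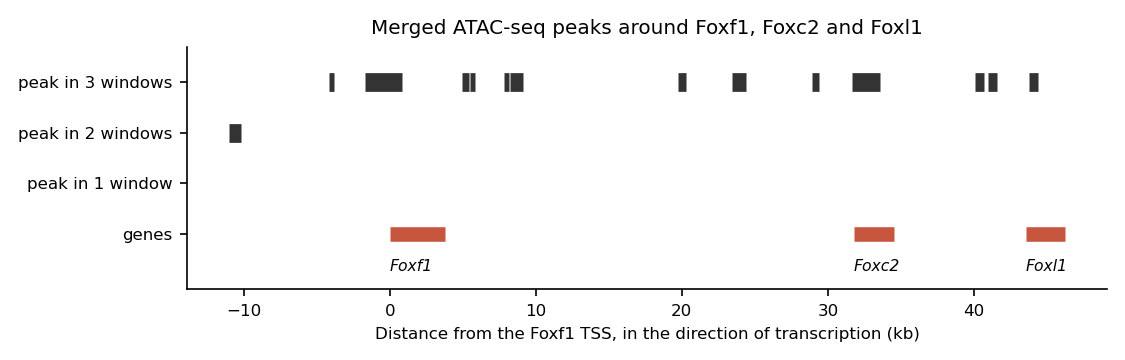
Map of Foxf1, Foxc2 and Foxl1 (coloured bars) with the merged peaks around them (dark bars) placed by distance from the Foxf1 TSS in kb, in the direction of transcription, and by the number of gene windows that hold each peak. Of the 14 peaks 13 lie in all 3 windows and 1 in 2, and the narrowest are drawn wider than they are so that they can be seen.

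Since the study turns on OCT4, the 308 distal peaks around forkhead genes were searched on both strands for a consensus of the composite OCT4::SOX2 motif (up to 2 mismatches), for the OCT octamer ATGCAAAT and for the core forkhead motif TGTTTAC (both exact). The octamer is part of the composite motif, so these searches overlap. An OCT4::SOX2 match was found in 1 peak (0.325%, Wilson interval 0.0573 to 1.82), beside 0.258% of all 76716 distal peaks. The paper searched for this motif with HOMER, so its motif frequencies are another measure and cannot be set beside these shares. The octamer was found in 12 peaks (3.90%, interval 2.24 to 6.69), beside 2.52% of all distal peaks. The forkhead motif was found in 22 peaks (7.14%, interval 4.76 to 10.6), beside 6.57%. At these settings each interval held the background. With at most 1 mismatch the same single peak still matched (0.325%), whereas the background was 0.0274% and lay below the interval, so that reading of the composite motif rests on 1 peak and on the mismatches allowed. The distal peaks of forkhead genes were wider than all distal peaks, with a median of 401.5 bp against 352 bp, which gives more sequence to match.

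The OCT4::SOX2 match lay in an intron of Foxn3, at chr12:99399619-99399633 on the minus strand, 163949 bp downstream of the TSS, with 1 mismatch. The peak that holds it is 187 bp wide. It is shown in the orientation of the motif with 20 bp on either side and the match in capitals, as the sequence that comes closest to the site the study is about.
Foxn3 OCT4::SOX2 match: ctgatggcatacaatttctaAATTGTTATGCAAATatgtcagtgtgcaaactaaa

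Foxn3 also had a peak of 476 bp, at chr12:99299904-99300379, with 3 exact octamers. Of all 76716 distal peaks 21 held 3 or more. The stretch chr12:99299955-99300146 is shown on the plus strand with the octamers in capitals, 2 of them on the minus strand and close together.
Foxn3 octamers: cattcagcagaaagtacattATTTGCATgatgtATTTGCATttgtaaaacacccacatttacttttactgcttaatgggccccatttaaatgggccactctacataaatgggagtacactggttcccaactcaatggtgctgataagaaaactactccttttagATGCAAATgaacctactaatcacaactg
A match to a consensus describes the letters in a peak and does not show that OCT4 was bound there.

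The 12 peaks with an octamer lay in the windows of 10 forkhead genes. Foxn3 had 3 of them, and Foxf2, Foxj1, Foxm1, Foxn1, Foxn2, Foxn4, Foxo1, Foxo4 and Foxo6 had 1 each. Those of Foxj1, Foxm1, Foxn4 and Foxo4 were nearest to the TSS of Exoc7, Tead4, Myo1h and Nlgn3. The Foxn3 peak at chr12:99230173-99230459 was nearest to Ttc8. The peak of Foxn2 was 100% repeat-masked and that of Foxf2 85.4%. Of these octamers, the one nearest to the TSS of its forkhead gene was at Foxj1, 15772 bp downstream. The forkhead motif occurred in 4 distal peaks at Foxn3 and in 3 at Foxp1. There were 2 at each of Foxa1, Foxj2, Foxk1, Foxm1 and Foxn2, and 1 at each of Foxc1, Foxj3, Foxo3 and Foxo6. Foxc2 and Foxf1 shared 1 peak with it, and no other forkhead gene had one.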

How the data were processed

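Per the labels and the methods, ATAC-seq reads were aligned with STAR 2.6.1c to GRCm38 (mm10), duplicates were removed with Picard, peaks were called with MACS2 2.1.1.20160309 in paired-end mode, and BEDTools merged the peaks of the dox-treated libraries. The processed list that the authors deposited holds coordinates only, and the reads were not analysed here. The methods name a removal of peaks over 5000 bp, but 7 such peaks remain. Whether input or blacklisted regions remain was not tested.

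From this list, distances to GENCODE M21 genes were counted, with all coordinates starting at 1. Sequences came from GRCm38, and starts for 26 of the 40 described members (16539 of all genes) from the RefSeq table of the same build. The single OCT4::SOX2 consensus had no ambiguous letters, and its counts depend on that spelling. 1 gene that meets the rule is not reported here and enters no forkhead count. Every other member was named. Those with the 5 highest and 5 lowest counts, densities and widths, without a TSS peak, with an OCT4::SOX2 match or with shared windows were described at length. The members, groups and measures were chosen with earlier results of these data known, and coding coverage, CpG extent, the 2000 bp limit and the RefSeq starts were added after seeing the values. No statistical test was made, because the list holds no value per library. Comparisons are given as counts and medians beside those of all genes. The scan and the distances were tested on simulated data. Python 3.11.15, numpy 2.4.6, scipy 1.17.1 and matplotlib 3.10.9 were used.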

Additional observations from a re-analysis of the deposited data

How the results depend on the processing

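No paired analysis was possible because replicates are not told apart in the merged coordinates, and for the same reason no replicate could be left out. The share of the 40 forkhead genes with a TSS peak stayed between 85% and 90% in the planned settings. These were distances of 500 or 2000 bp, any coding start, peaks of at least 300 bp, and no very wide or mostly repeat-masked peaks. The share of all protein-coding genes stayed between 63.9% and 69.4%. RefSeq starts, added after seeing the data, cover fewer genes. With them 22 of 26 forkhead genes had a TSS peak (84.6%), beside 69.4% of 16539 genes. The median number of peaks near a forkhead gene moved with the window and the list: it was 6.5 within 25000 bp, 7.5 with peaks of at least 300 bp and 7 with distal peaks only, where all protein-coding genes gave 6, 6 and 5. Within 100000 bp it was 14.5, under the 16 of all protein-coding genes, so the order of these medians depended on the window. The share of distal peaks with an OCT4::SOX2 match was 0.325% with 1 mismatch (0.0274% of all distal peaks) and rose to 2.27% with 3 (2.16% of all), and that with the forkhead motif fell to 3.57% in the central 200 bp (3.15% of all). The other planned settings moved these values by less than their counting error. Depth is unknown, which limits what a missing peak shows.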
